A study of Mus musculus with 3 samples.

Results

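The genes described here are 10 that make up the inflammasome and pyroptosis route of mouse cells, chosen by name: the sensors Nlrp3, Nlrp1b, Nlrc4, Naip2, Naip5 and Aim2, the adaptor Pycard, the proteases Casp1 and Casp4, and the pore protein Gsdmd. All 10 were found among the 55536 Ensembl genes of the gene table. Their RNA was read in 3 libraries of 1 group, biological replicates 1, 2 and 3, each made from cytosolic total RNA depleted of ribosomal RNA. The cells were primary macrophages grown from the bone marrow of C57BL/6J mice, with no age or sex recorded. Every library came from cells held in Lipid A (100 ng/ml) for 12 h, rested after a wash for another 12 h, and exposed once more at the same dose for 50 min before harvest. There was no library without Lipid A, with a single exposure or from the nuclear fraction, so the comparisons possible are between genes, between transcripts of a gene and between the replicates. The replicates are separate samples under 1 donor entry for the strain, and the labels do not say whether they came from separate mice.

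Inflammasomes are protein platforms that assemble in the cytosol when a sensor meets a microbial product or a sign of damage. Sensor and adaptor proteins recruit pro-caspase-1, which then cleaves the precursors of interleukin-1β and interleukin-18 and the pore protein gasdermin D, and the pores release the cytokines and kill the cell by pyroptosis. Caspase-11, the product of Casp4 in the mouse, binds the Lipid A moiety of lipopolysaccharide in the cytosol and cleaves gasdermin D directly. In macrophages the genes of NLRP3 and caspase-11 are known to be raised by Toll-like receptor 4, the surface receptor for Lipid A, through NF-κB and type I interferon.

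Short sequence motifs were looked for at the starts of these genes. RefSeq promoter windows (GRCm38.p6, from 250 bases before to 50 after a start site) matched 9 of the 10 genes with 12 windows. Each was searched on both strands for the κB consensus (by name, 10 letters with a G-rich and a C-rich end), an interferon-response element core (GAAANNGAA), the gamma-activated site (TTCNNNGAA), the AP-1 site (TGANTCA), the PU.1 core (GAGGAA) and the TATA box (TATAAA). The windows below are the start of Casp4, the upstream and the downstream start of Nlrp3, and the start of Naip2, written 5′ to 3′ on the strand of the gene, with every motif match in capitals. They are shown because Casp4 and Nlrp3 were the most unequal of the highly expressed members, and Naip2 holds the one interferon-response match.
Casp4, chr9:5308599-5308898, plus strand: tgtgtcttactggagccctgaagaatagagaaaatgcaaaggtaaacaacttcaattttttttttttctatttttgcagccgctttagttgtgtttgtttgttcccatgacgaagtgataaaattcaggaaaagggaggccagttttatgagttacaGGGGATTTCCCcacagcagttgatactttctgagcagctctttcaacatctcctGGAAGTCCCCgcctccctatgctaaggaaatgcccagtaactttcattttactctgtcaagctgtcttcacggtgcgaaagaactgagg
Nlrp3 upstream start, chr11:59541319-59541618, plus strand: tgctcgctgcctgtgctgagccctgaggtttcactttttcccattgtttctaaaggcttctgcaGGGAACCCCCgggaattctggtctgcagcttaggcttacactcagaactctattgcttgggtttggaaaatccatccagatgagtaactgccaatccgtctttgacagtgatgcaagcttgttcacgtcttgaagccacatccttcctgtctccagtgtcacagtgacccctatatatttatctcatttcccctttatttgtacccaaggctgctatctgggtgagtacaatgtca
Nlrp3 downstream start, chr11:59542436-59542735, plus strand: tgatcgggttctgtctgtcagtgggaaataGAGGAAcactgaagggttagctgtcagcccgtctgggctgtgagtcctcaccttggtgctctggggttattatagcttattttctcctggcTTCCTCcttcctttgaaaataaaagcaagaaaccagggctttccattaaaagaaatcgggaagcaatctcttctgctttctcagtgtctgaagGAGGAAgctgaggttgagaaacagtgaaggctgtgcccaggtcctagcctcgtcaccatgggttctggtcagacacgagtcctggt
Naip2, chr13:100202073-100202372, minus strand: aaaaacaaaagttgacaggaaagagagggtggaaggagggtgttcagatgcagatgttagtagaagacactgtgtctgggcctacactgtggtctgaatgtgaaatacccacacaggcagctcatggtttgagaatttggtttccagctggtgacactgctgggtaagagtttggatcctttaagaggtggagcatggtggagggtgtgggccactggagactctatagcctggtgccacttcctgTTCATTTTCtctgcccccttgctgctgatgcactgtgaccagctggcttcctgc
In the Casp4 window the capitals mark an overlapping pair of κB matches from -93 to -83, counted from the start site, and another on the opposite strand from -39 to -30. A window for a neighbouring Casp4 start site holds the same matches, shifted. The upstream Nlrp3 window has a κB match from -186 to -177, and the downstream one has none, its capitals marking 3 PU.1 cores. A κB match also lay in the Naip5 window, from -218 to -209. The start site of that window is 100247336, whereas the annotated Naip5 transcript begins at 100246323. A κB match occurs in 8.46% of the 32851 windows of all genes. The Naip2 capitals mark the interferon-response core across the start site, from -4 to 5, a motif found in 8.56% of all windows. No window of the 9 genes held the gamma-activated site (8.30% of all windows) or the AP-1 site (7.81%). PU.1 cores stood in windows of Aim2, Casp1, Nlrp1b, Nlrp3 and Pycard, against 28.3% of all windows, and a TATA box in that of Naip5, against 13.6%. The Aim2 window has its start site at 173420604, beside the start of Aim2-205 at 173420598. Aim2-204, the transcript with most of the Aim2 reads, begins at 173455354. All of these motifs are matches of letters, and no binding was measured.

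Summed over genes, the expected counts came to 47972062 in replicate 1, 54409436 in replicate 2 and 53491957 in replicate 3. Protein-coding genes took 33.3%, 26.1% and 37.0% of TPM (a share of all transcripts after correction for length), a difference that moves the TPM of every gene. Levels between genes are therefore given in TPM, and replicates are compared in CPM (counts scaled to the library's size, here by TMM). All 12 macrophage markers were above the expression threshold, with a median TPM of 446. Of 12 neutrophil markers 4 were, led by Csf3r, with Ly6g and Retnlg listed at 0, and the neutrophil list summed to between 41.0 and 53.9 TPM per library. The lists of B cells, T and NK cells, mast cells and erythroid cells had 0 members above it, the dendritic list 1 of 7 and the stromal list 1 of 8. The part of such cells in the values below was not tested. In a bulk sample, fewer cells of a type and less RNA per cell cannot be told apart. The RNA Malat1, known to stay in the nucleus, stood at 6066, 3077 and 1408 CPM in replicates 1, 2 and 3, so the fractions differed in nuclear RNA.

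All 10 genes had 1 TPM or more in each library, the threshold for calling a gene expressed, which 41.1% of 22028 protein-coding genes met. Their mean levels spanned 2.19 to 86.7 TPM with a median of 33.6, and the median of expressed protein-coding genes was 9.20. Casp1 lay at the top and the sensors were spread from 2.19 to 52.4 TPM, as the plot of levels by gene shows. Chromosomal positions below are those of mm10.

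**Figure D1:**
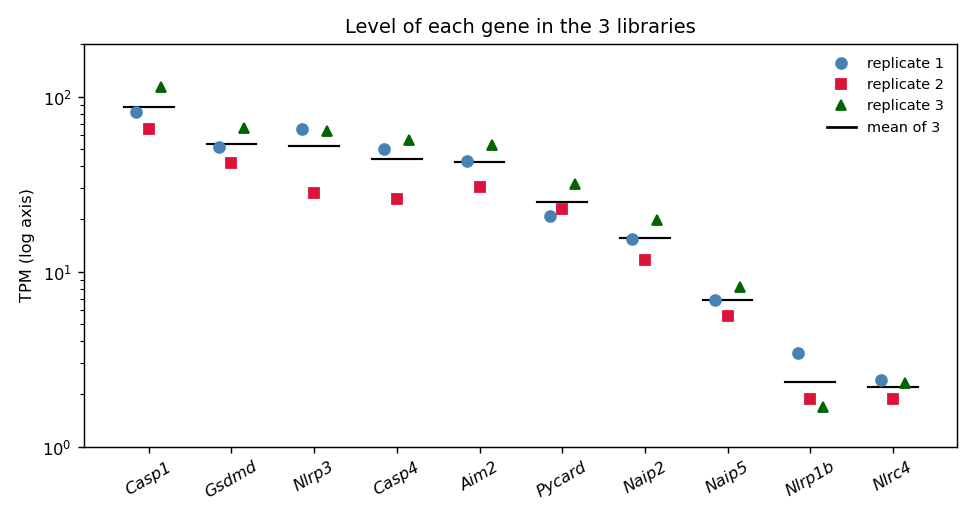
TPM of each gene in the 3 libraries (log axis), ordered by mean; symbols are the replicates and the bars their mean. Casp1 is highest at a mean of 86.7 and Nlrp1b and Nlrc4 lowest, at 2.33 and 2.19.

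Casp1 (ENSMUSG00000025888.5, chromosome 9, 5298517 to 5307265, plus strand) encodes the protease of the canonical inflammasome. It had 81.6, 65.2 and 113 TPM in replicates 1, 2 and 3, a mean of 86.7 ± 24.4 (SD, n = 3), above 93.4% of the expressed protein-coding genes. Casp1 was the highest of the 10 in every library by these values. By the other quantification, described below, Nlrp3 was higher in replicate 1, at 52.3 against 49.8 TPM for Casp1. The neighbour of Casp1 on the same strand, Casp4 (ENSMUSG00000033538.13, chromosome 9, 5308828 to 5336783), had 50.1, 25.9 and 56.7 TPM, a mean of 44.3 ± 16.2 (SD, n = 3). Casp4 was below Casp1 in 3 of 3 libraries, by a mean log2(TPM + 1) difference of -0.99 ± 0.30 (SD). Per library, Casp4 had 0.614, 0.398 and 0.501 of the TPM of Casp1, and the ranges of the caspases did not overlap. By the other quantification Casp4 was again the lower in each library. There the ranges overlapped, at 41.7, 11.3 and 17.5 TPM for Casp4 against 49.8, 25.7 and 34.5 for Casp1. Gsdmd (ENSMUSG00000022575.5, chromosome 15, 75862327 to 75867408, plus strand), the common substrate of both proteases, had 51.7, 41.6 and 66.6 TPM, a mean of 53.3 ± 12.6 (SD, n = 3). It kept nearly the same distance below Casp1 in each library, with ratios of 0.633, 0.638 and 0.589.

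Pycard (ENSMUSG00000030793.4, chromosome 7, 127989708 to 127993867, minus strand) encodes ASC, the adaptor that links sensors to caspase-1. Its level was 20.9, 22.9 and 31.5 TPM, a mean of 25.1 ± 5.62 (SD, n = 3), below Casp1 in 3 of 3 libraries, with ratios from 0.256 to 0.352. The antisense gene Gm45205 overlaps it, and 11.5% of the 50-base stretches of Pycard also occur in Gm45205. With no strand setting stated, reads from the shared stretches cannot be told apart, so the Pycard level is uncertain by an amount that was not measured.

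Among the sensors, Nlrp3 and Aim2 stood far above the rest in TPM. The Aim2 level leans on short transcripts, described below. Aim2-204, the transcript with most of the Aim2 reads, had 13.4, 9.04 and 15.2 TPM. Nlrp3 (ENSMUSG00000032691.14, chromosome 11, 59541568 to 59566956, plus strand), which responds to loss of ion balance and many other disturbances, had 65.0, 28.3 and 63.9 TPM, a mean of 52.4 ± 20.9 (SD, n = 3). Replicate 2 lay under the other libraries, which were close to each other by these values. Aim2 (ENSMUSG00000037860.15, chromosome 1, 173350879 to 173466040, plus strand), the sensor of cytosolic DNA, had 42.8, 30.5 and 53.0 TPM, a mean of 42.1 ± 11.3 (SD, n = 3). Aim2 lay under Nlrp3 in replicates 1 and 3 and above it in replicate 2, so no order between them held across libraries. The Aim2 interval overlaps a gene on the opposite strand, Cadm3.

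The flagellin and secretion-system branch works in pairs: a NAIP protein binds the bacterial ligand (Naip5 flagellin, Naip2 the inner rod of type III secretion systems) and then activates NLRC4. Naip2 (ENSMUSG00000078945.10, chromosome 13, 100144063 to 100202092, minus strand) had 15.4, 11.6 and 19.6 TPM, a mean of 15.5 ± 4.0 (SD, n = 3). Naip5 (ENSMUSG00000071203.6, chromosome 13, 100211739 to 100246323, minus strand) had 6.85, 5.56 and 8.22 TPM, a mean of 6.88 ± 1.33 (SD, n = 3), which was 0.445, 0.481 and 0.420 of Naip2. The ranges of these neighbouring copies did not overlap. Nlrc4 (ENSMUSG00000039193.9, chromosome 17, 74425438 to 74459142, minus strand), the common partner, had only 2.39, 1.86 and 2.31 TPM, a mean of 2.19 ± 0.286 (SD, n = 3). It was below both NAIP genes in every library and 3.98 ± 0.54 log2 units under Nlrp3, where the difference is of log2(TPM + 1). Nlrp1b (ENSMUSG00000070390.12, chromosome 11, 71153102 to 71230733, minus strand), a sensor set off by proteolytic cleavage of its own amino terminus, had 3.41, 1.88 and 1.69 TPM, a mean of 2.33 ± 0.943 (SD, n = 3).

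Of 9 neighbouring steps in the order of mean levels, 6 joined genes whose ranges over the 3 libraries overlapped. Gsdmd against Nlrp3, Casp4 against Aim2, and Nlrp1b against Nlrc4 changed order between libraries, so those orders are not resolved. The steps from Pycard to Naip2, from Naip2 to Naip5 and from Naip5 to Nlrp1b were without overlap. The place of Pycard leans on a short transcript, described below. Pycard-201, the transcript with most of the Pycard reads, had 6.00, 6.58 and 6.57 TPM, below Naip2 in each library. With 3 libraries an exact two-sided sign-flip permutation test cannot give a p below 0.25, and every pair that kept 1 direction in all 3 stands at that value (0.327 after Benjamini-Hochberg adjustment over 17 pairs).

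The copies of these genes were mostly low. Naip6 had 5.63, 3.98 and 6.10 TPM, close to Naip5, whereas Naip1 had 0.200, 0.140 and 0.310. Nlrp1a, beside Nlrp1b, had 0.990, 0.820 and 1.29 TPM, and Casp12, a relative of the inflammatory caspases, had 0.400, 0.360 and 0.840. How far copies can be separated differs among the members. Of the 50-base stretches of Naip5, 36.9% occur in another gene (22.3% in Naip6), and of Naip2 19.1% (12.3% in Naip1), against 1.45% for Nlrp1b and 0 for Casp1, Gsdmd and Nlrp3. Of the 10 genes, Naip5 and Naip2 share the most sequence, though the deposited posterior SD of a member's count was at most 3.89 reads.

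Reads were also assigned by another quantification, the kallisto layout, which gave most members slightly more reads, in the way it did for all genes. The ratio of its reads to those of the RSEM layout had a median of 1.09 over 11669 protein-coding genes and was 1.08 to 1.19 for 9 members. Nlrc4 was the exception: 737, 798 and 698 reads in one and 1551, 1438 and 1504 in the other, ratios of 2.10, 1.80 and 2.15. Its mean ratio of 2.02 was above that of 98.2% of those genes. The level of Nlrc4 is therefore known to no better than that factor, a gap wider than its spread between libraries.

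Between replicates, 9 of the 10 genes differed by more than counting error allows (Poisson heterogeneity test, Benjamini-Hochberg 0.05), while 70.0% of 13823 genes tested did so at this depth, so the count of members says little by itself. The one exception was Nlrc4, at 14.7, 14.7 and 13.6 CPM (adjusted p = 0.286). In size, libraries were compared by the ratio of the highest to the lowest value of CPM + 0.5. The median ratio was 1.36 among the members against 1.23 over all genes tested. The median biological coefficient of variation was 0.151, against 0.164 for all genes tested and 0.147 for the protein-coding ones. Replicate 3 was the highest for 6 of 10 members (all genes: 34.2%), 3 were highest in replicate 1 (34.4%) and 1 in replicate 2 (31.4%). Lowest in replicate 2 were 4 of 10 (31.0%), 4 in replicate 1 (32.2%) and 2 in replicate 3 (36.8%). More members than genes at large were highest in replicate 3 and fewer in replicate 2, which with 10 genes is a description. By the other quantification described above, rescaled to protein-coding genes, 4 of 10 were highest in replicate 3, since Casp4 and Aim2 were there highest in replicate 1.

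The members fell into different patterns, shown in the plot of deviations from each gene's mean. Nlrp3 had 345, 198 and 322 CPM, with deviations of 0.30, -0.50 and 0.20 in log2(CPM + 0.5). Casp4 had 78.0, 52.7 and 85.2 CPM, with deviations of 0.14, -0.42 and 0.27. In both, replicate 2 was low and the other libraries were near each other. By the other quantification, in TPM rescaled to protein-coding genes, Nlrp3 had 267, 132 and 211 and Casp4 213, 117 and 161. Replicate 2 was again lowest there, while replicates 1 and 3 stood further apart. A list of 16 early NF-κB targets, such as Tnf and Nfkbia, was low in replicate 2 too. Of these, 16 of 16 were lowest in replicate 2 (all genes: 31.0%), with median deviations of 0.14, -0.42 and 0.22. Aim2, at 55.4, 48.3 and 60.3 CPM, was lowest in replicate 2 as well and highest in replicate 3 like Casp4, with a smaller ratio of 1.25.

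**Figure D2:**
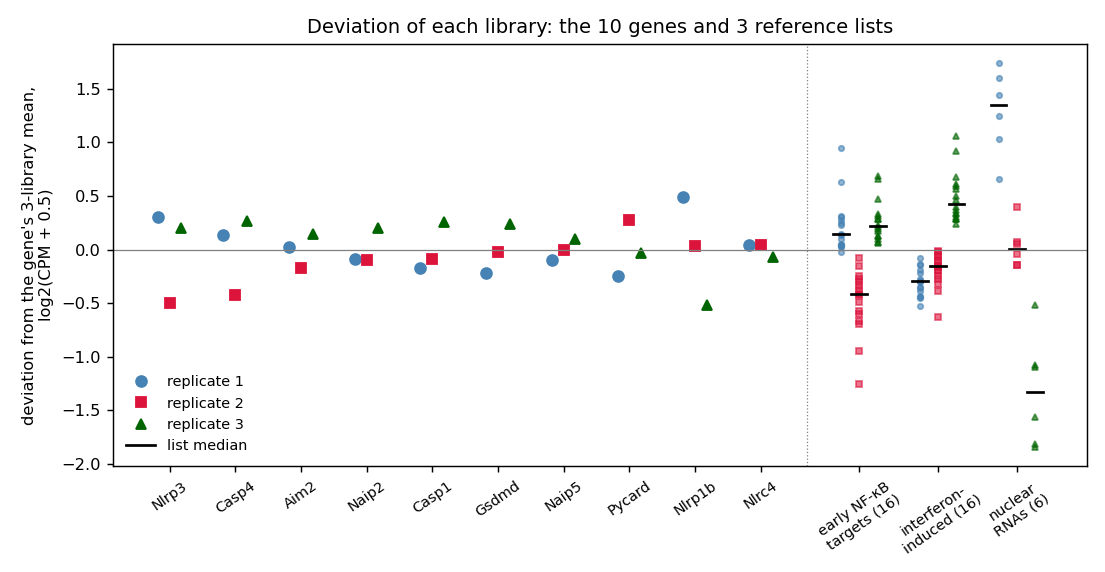
Deviation of each library from the gene's mean over 3 libraries in log2(CPM + 0.5), for the 10 genes and for 3 reference lists, where small points are genes and bars medians. Nlrp3 and Casp4 are low in replicate 2, as is the NF-κB list (median -0.42), and Casp1 and Gsdmd are high in replicate 3, as is the interferon list (median 0.43).

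Casp1 and Gsdmd formed another pattern. Casp1 had 148, 157 and 200 CPM and Gsdmd 98.1, 113 and 135, both lowest in replicate 1 and highest in replicate 3. Interferon-induced genes such as Ifit2 and Rsad2 peaked in replicate 3 in 16 of 16 cases (all genes: 34.2%). Of them, 12 were lowest in replicate 1 (all genes: 32.2%), and the median deviations of the list were -0.29, -0.16 and 0.43. The caspase-1 and gasdermin D values moved the same way by less, -0.17, -0.09 and 0.26 for Casp1 and -0.22, -0.02 and 0.24 for Gsdmd. Naip5 had that order too, at 48.5, 52.0 and 55.9 CPM, a ratio of only 1.15. Naip2, at 98.2, 97.6 and 120 CPM, was raised in replicate 3 over libraries that were level with each other. Since all of these values come from the same 3 libraries, a likeness of pattern is a description of those libraries.

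Pycard and Nlrp1b went their own ways. Pycard had 36.3, 52.7 and 42.2 CPM and was the only member highest in replicate 2, with a ratio of 1.45. Nlrp1b was the most unequal member, at 19.2, 13.9 and 9.30 CPM, a ratio of 2.01 on CPM + 0.5. Its order was that of the nuclear RNA list. There 6 of 6 were highest in replicate 1 (all genes: 34.4%) and lowest in replicate 3 (all genes: 36.8%). Median deviations of that list were 1.34, 0.01 and -1.33, against 0.49, 0.03 and -0.52 for Nlrp1b. The part of nuclear RNA in the Nlrp1b value was not tested. Among 4448 genes with a mean TPM of at least 10, the 3 whose deviations were most like those of Nlrp1b over the 3 libraries were Mt1 (a metallothionein), Taf1d and the pseudogene Gm7536, at distances of 0.127, 0.135 and 0.144 log2 units.

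Transcripts gave a second view of the same reads. The 10 genes have 38 annotated transcripts, and 8 have more than 1. Casp4 and Gsdmd are the members with annotated retained-intron transcripts, which keep an intron and are not coding. In Casp4 their reads numbered 654, 277 and 226, or 16.7%, 9.66% and 5.17% of the Casp4 reads in replicates 1, 2 and 3. Gsdmd had 220, 116 and 59 such reads, or 4.47%, 1.89% and 0.854%. In both genes the share was highest in replicate 1 and lowest in replicate 3, the order of Malat1. Over 2777 protein-coding genes with such a transcript the medians were 1.30%, 0.795% and 0.437%, and 73.6% of them were highest in replicate 1, so the direction is that of most genes while the size in Casp4 is not that of the median gene.

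With reads of protein-coding transcripts only, an alternative chosen after seeing these shares, Casp4 had 58.7, 44.5 and 77.2 CPM, still lowest in replicate 2, with a ratio of 1.73 in place of 1.61. The distance between replicates 1 and 3 was wider than with all reads. Gsdmd had 93.7, 111 and 134 CPM by that count, and each member kept its highest and lowest library.

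Nlrp1b was the one member whose transcript with the most reads, in both tables, is not annotated as coding. Nlrp1b-205, annotated as a target of nonsense-mediated decay, took 44.0%, 36.7% and 62.7% of the gene's TPM, and 61.7%, 45.1% and 69.8% in the other transcript table. Its reads numbered 438, 290 and 304, while those of the coding transcripts numbered 525, 465 and 173. The CPM of the coding transcripts, 10.5, 8.56 and 3.37, had a ratio of 2.83 on CPM + 0.5. The other table gave 734, 417 and 381 reads to Nlrp1b-205 and 423, 478 and 158 to the coding transcripts, so it put more of the drop from replicate 1 to 3 on Nlrp1b-205. Coding reads were lowest in replicate 3 in both tables, and which class made up most of the difference is not settled. Nlrp1b-205 has 208 of its 4270 50-base stretches to itself, so the split rests on a small part of the transcript.

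**Figure D3:**
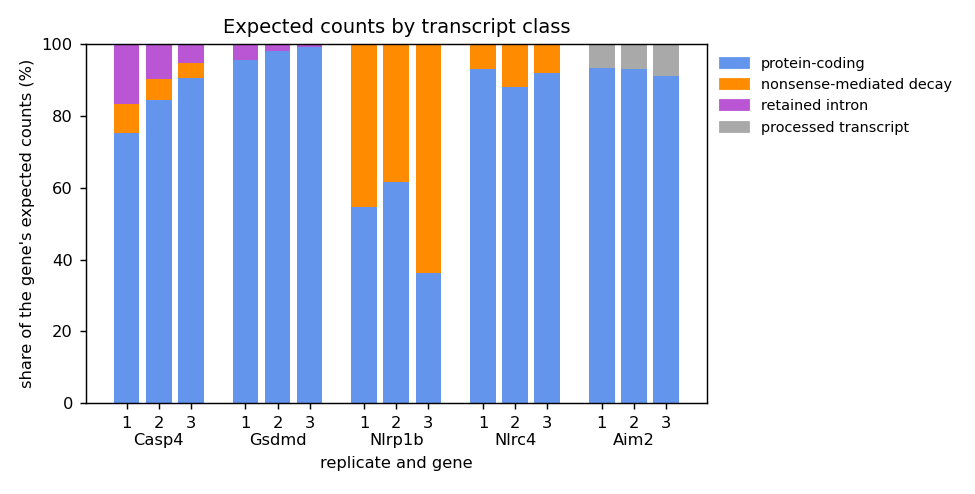
Share of each gene's expected counts by annotated transcript class, in percent, one bar per replicate. Retained-intron reads of Casp4 go from 16.7% in replicate 1 to 5.17% in replicate 3, and decay-annotated reads of Nlrp1b reach 63.7% in replicate 3.

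The start used by Nlrp3 bears on the promoter windows above. Nlrp3-201, which begins at 59541568 beside the upstream window with the κB match, had 76.0%, 80.9% and 76.3% of the gene's TPM, a mean of 77.7% ± 2.75 (SD, n = 3). Nlrp3-202 begins at 59542686, at the downstream window. The other transcript table gave Nlrp3-201 only 40.9%, 56.4% and 54.6%. There the remainder was split between Nlrp3-202, at 28.2%, 24.3% and 22.5%, and the short Nlrp3-203, which begins close by at 59542756, at 30.9%, 19.3% and 22.9%. The pair of transcripts differs in few bases: 35 and 71 stretches of 50 bases are found in Nlrp3-201 and Nlrp3-202 alone. In that table the transcripts of the downstream start together outweighed Nlrp3-201 in replicate 1 by TPM. By its reads Nlrp3-201 led in every library, with 55.7%, 67.4% and 67.7%, and Nlrp3-203 has no 50-base stretch to itself. The tables therefore do not settle how much of the RNA began at the upstream start.

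For Naip2 the tables gave opposite answers. The first put 84.9% ± 2.82 (SD, n = 3) of TPM on Naip2-201, which begins at 100197147, and the second put 14.1% ± 6.25 there, with Naip2-202, which begins at 100202092, in the lead. Only 21 and 131 stretches of 50 bases tell them apart. The interferon-response match printed above lies by the start of Naip2-202, so whether that start was the one in use is not resolved. Across genes with several transcripts, 6 of 8 had the same leading transcript in both tables, the exceptions being Naip2 and Aim2.

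**Figure D4:**
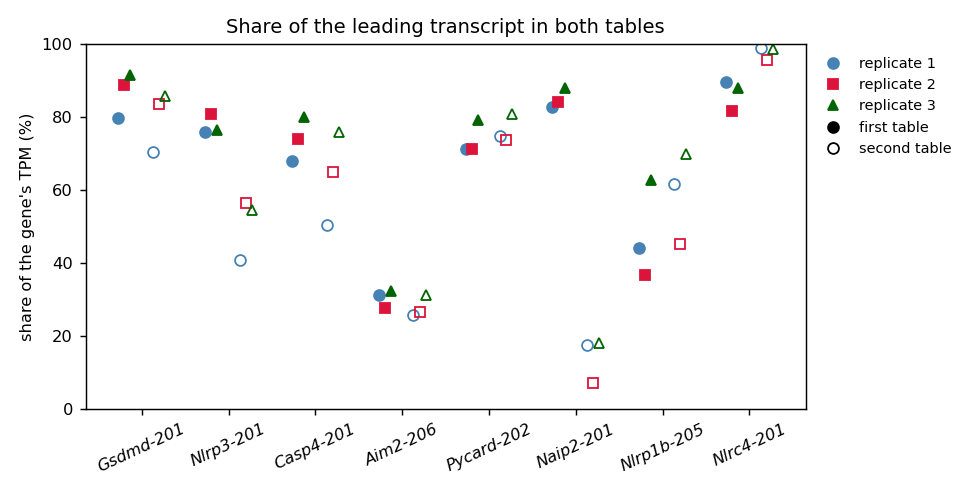
Share of the gene's TPM on the transcript that leads in the first table, in percent, for the 8 genes with several transcripts; filled symbols are the first table and open symbols the second. Naip2-201 drops from a mean of 84.9% to 14.1% and Nlrp3-201 from 77.7% to 50.6%.

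In Aim2 and Pycard, TPM and reads weighted the transcripts differently, since TPM divides by length. Aim2-206, a non-coding transcript of 383 bases, had 30.4% ± 2.36 (SD, n = 3) of TPM, beside 29.9% ± 1.29 for Aim2-204 and 28.4% ± 2.77 for Aim2-205, so none of them led beyond the spread. By reads Aim2-204 stood apart, with 64.6%. Pycard-202, of 493 bases, had 73.9% of TPM, while Pycard-201, of 3800 bases, held 81.4% of the reads. Aim2 and Pycard levels in TPM therefore lean on short transcripts.

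The rest of the pathway was read from lists of related genes, whose levels the plot of list levels shows. Among 15 other sensors 9 were expressed, led by the interferon-inducible Ifi204, Zbp1 and Ifi203 (mean TPM 294, 177 and 115), and Nlrp6 was at 0 TPM in every library. Of these 12 of 13 tested differed between libraries (all genes: 70.0%) and 10 were highest in replicate 3 (all genes: 34.2%). Gasdermin D was nearly alone in its family: Gsdme had 2.04, 1.22 and 2.01 TPM, so Gsdmd exceeded it by 4.29 ± 0.19 in log2(TPM + 1), and 5 of the 9 genes of the gasdermin and rupture list had no counts. Ninj1, the protein that breaks the membrane after pore formation, was high, at 164, 135 and 180 TPM. Of 8 other caspases 6 were expressed, with Casp8, the initiator of death-receptor apoptosis, at a mean of 36.8 TPM, under Casp1 in each library and above Casp4 in replicate 2 alone, and Casp14 at 0.

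**Figure D5:**
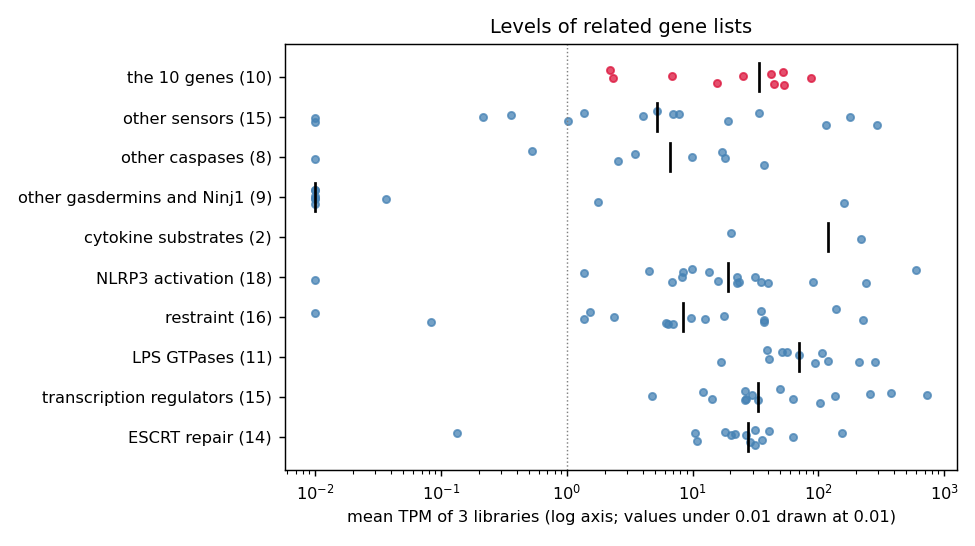
Mean TPM over 3 libraries of each gene (points, log axis) in the 10 genes and 9 related lists, with list medians as bars and 1 TPM as a dotted line; values under 0.01 are drawn at 0.01. The LPS GTPases have a median of 70.1, and the gasdermin list is mostly at the left edge.

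The cytokines that caspase-1 matures differed widely in mRNA. Il1b had 298, 154 and 199 TPM and Il18 had 16.4, 16.7 and 27.2, a difference of 3.35 ± 0.67 in log2(TPM + 1). Il1b was highest in replicate 1 and Il18 in replicate 3. Guanylate-binding proteins, some of which open up bacteria and their lipopolysaccharide to caspase-11, were listed together with immunity-related GTPases. Of these, 11 of 11 were expressed, with Gbp2, Irgm1 and Gbp6 at means of 283, 209 and 119 TPM and Gbp8 lowest at 16.9. All 11 differed between libraries (all genes: 70.0%) and peaked in replicate 3 (all genes: 34.2%). Their median deviations, -0.28, -0.07 and 0.33, stand beside -0.17, -0.09 and 0.26 for Casp1 and -0.22, -0.02 and 0.24 for Gsdmd.

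Of 18 genes that license or activate NLRP3, 17 were expressed, led by Hspa8, Hsp90ab1 and Syk (means of 602, 238 and 90.6 TPM) with Prkd1 at 0, and 13 of 17 differed between libraries (all genes: 70.0%), with a median ratio of 1.17 (all genes: 1.23). The most unequal was Txnip, which binds NLRP3 under oxidative stress, at 105, 186 and 92.3 CPM and a ratio of 2.01. The kinase Nek7, which binds NLRP3 for its assembly, had 24.5, 18.8 and 26.5 TPM. In CPM Nek7 had 155, 158 and 158, a ratio of 1.02, and did not pass the test, beside an Nlrp3 ratio of 1.74. On TPM rescaled to protein-coding genes, the number of these genes highest in replicate 3 went from 8 to 4 of 17.

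A list of genes linked to the restraint of inflammasomes had 12 of 16 expressed. Tnfaip3, Cflar and Pstpip1 were highest (225, 138 and 37.2 TPM) and Trim31 was at 0. Whether each of them restrains or promotes inflammasomes in these cells was not tested. All 14 tested differed between libraries (all genes: 70.0%), Tnfaip3 with 281, 112 and 283 TPM, low in replicate 2 like Nlrp3. Regulators of the members' transcription were expressed in 15 of 15 cases, with the interferon regulatory factors Irf7 and Irf1 at 729 and 257 TPM, and Ifnb1, the gene of interferon-β, lowest at 3.34, 1.05 and 9.91. In CPM Ifnb1 had 2.51, 1.05 and 7.43. Its ratio between libraries on CPM + 0.5, 5.12, was larger than that of any of the 10 genes. The ESCRT membrane-repair genes, which remove gasdermin pores, were expressed in 13 of 14 cases, with Chmp4b, Chmp2a and Pdcd6ip highest (155, 62.6 and 40.5 TPM), Chmp4c lowest (0.133), and a median ratio of 1.16.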

How the data were processed

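Cytosolic RNA of 3 libraries of 1 group was used. Per library there are gene and transcript tables in the column layout of RSEM, deposited by the authors, and a transcript table in that of kallisto (the second table). Expected counts, estimated reads that need not be whole, were deposited by the authors without normalisation and were rounded for count tests. TPM was deposited by the authors over every indexed feature, short RNAs included. Each transcript's percent of its gene was deposited by the authors too and was computed again here from TPM. The notes deposited with the files name mm10 and GENCODE M21. The programs, their versions and the strand setting were not given in the sources used here.

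Genes with 1 TPM or more in all libraries counted as expressed. Variation beyond counting error was tested by a chi-square test of Poisson heterogeneity, with 2 degrees of freedom, given TMM library sizes (edgeR 4.0.16, R 4.3.3), where the mean count was 10 or more, Benjamini-Hochberg 0.05 over all genes. The biological coefficient of variation is edgeR's tagwise value from an intercept-only fit. Ratios of the highest to the lowest library were taken on CPM + 0.5, which makes them smaller for genes of low CPM. Pairs of genes were compared as log2(TPM + 1) within a library. Sampling precision followed depth: a count of 0 allows up to 0.0625, 0.0551 and 0.0561 CPM (3 counts, counting error only). Shared sequence was counted over stretches of 50 bases of GENCODE transcripts. The heterogeneity test and sign flip were tested on simulated data (Python 3.11.15, scipy 1.17.1). DESeq2 1.42.0 size factors, upper-quartile sizes, other minimums, the second table, protein-coding TPM and leaving out each library were alternatives.

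The 10 genes and the related lists were chosen with earlier results of these data known. Named are all 10 genes, both genes of each pair, family copies, the 3 highest and the lowest of each related list and the 3 genes nearest in pattern to the most unequal member; Ninj1, Nek7, Tnfaip3, Txnip and the examples of the reference lists were picked for their role or after their values were seen. The listed names (Mnda, Brcc3dc and Irgb10) were not matched. Some genes that this rule names are not reported here. P-values measure the spread between these samples only.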

Additional observations from a re-analysis of the deposited data

How the results depend on the processing

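The number of the 10 genes expressed was 8 to 10 under every alternative: 8 at a TPM minimum of 5 and 9 in the second table, where Nlrp1b missed the threshold in replicates 2 and 3. The number that differed between libraries was 8 to 10, with Naip2 lost without replicate 3 and Nlrc4 added by the second table. Over all genes the count was 9682 of 13823 tested (70.0%). With 1 library left out it was 6983 to 7308, with shares from 49.8% to 53.8% of the genes tested. In the second table it was 13220, but of 17323 tested (76.3%). The share also moved with the minimum count, while 9 members differed each time. It was 45.2% of 22412 genes with no minimum, against 76.9% of 10455 where a mean of 100 reads was required. Of the 17 gene pairs, 14 kept their direction under every alternative and 3 did not, all between neighbours in level. Gsdmd minus Nlrp3 (0.09) became -0.19 in the second table and ranged from -0.13 to 0.30 with 1 library left out; Casp4 minus Aim2 (0.03) ranged from -0.06 to 0.16; Nlrp1b minus Nlrc4 (0.03) became -0.34 in the second table and ranged from -0.14 to 0.19. The cause was not tested. Mean TPM of all 10 genes moved by more than 1 SD in the second table and after rescaling to protein-coding genes, which change the denominator. Rescaled to protein-coding genes, TPM of the second table put Casp4 (213, 117 and 161) and Aim2 (161, 128 and 153) highest in replicate 1 in place of 3. Without rescaling, TPM of that table put Nlrp3 (52.3) above Casp1 (49.8) in replicate 1. There the ranges of Casp1 and Casp4 overlapped, as did those of Naip5 and Nlrp1b. The share of the leading transcript moved by more than 1 SD in the second table for 6 of 8 genes. No paired analysis was possible because there is 1 group. Depth limits Nlrp1b and Nlrc4 most, at 477 to 963 and 698 to 798 reads.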
